A study of Mus musculus with 32 samples.

Results

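The genes described here encode the proteasome of mouse cells, without its inducible catalytic subunits. They are all genes of the array annotation whose symbol starts with Psma, Psmb, Psmc, Psmd, Psme or Psmg followed by a digit, except Psmb8, Psmb9 and Psmb10. This rule gave 47 genes, of which 45 had a probe set of their own among 18194 such genes on the array. The probe set with the highest mean was taken for each gene. A gene was tested where that mean reached 5.78, the median of all probe sets, on the log2 scale, which 43 of the 45 genes and 11228 genes in all did. Psma8, a testis form of an alpha subunit, and Psmb11, the thymus form of a catalytic subunit, stayed below it with means of 4.37 ± 0.12 and 4.76 ± 0.17 (SD, n = 32). Psme2 and Psme2b were named only on probe sets that they share with each other or with other genes and have no value here. The name of the set is not exact, since Psmc3ip, a recombination cofactor, and Psme3ip1, which binds an activator, meet the rule but encode no subunit.

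The proteasome is the protease that degrades proteins tagged with ubiquitin in the cytosol and nucleus. Its barrel, the 20S core, is made of outer rings of alpha subunits and inner rings of beta subunits, and Psmb5, Psmb6 and Psmb7 carry its catalytic sites. The 19S cap holds a ring of ATPases, which unfold the substrate, and non-ATPase subunits that bind or remove ubiquitin. Activators such as Psme3 and Psme4 can bind the barrel in place of the cap, and chaperones assist assembly of the rings. Lymphocytes can replace the catalytic subunits with Psmb8, Psmb9 and Psmb10, the immunoproteasome, which alters the peptides offered to T cells. When proteasome activity is short, the factor encoded by Nfe2l1 is known to raise transcription of proteasome genes through antioxidant response elements.

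The 32 samples were lymphomas of mice with the Eµ-myc genotype, in which the immunoglobulin heavy chain enhancer drives Myc in cells of the B lineage. Each was measured on 1 Affymetrix Mouse430_2 array, and tumours are called here by their number in the labels. The labels give 1 group with no control group, treatment or age. They do not say which tumours were extracted as tissue and which as dissociated cells, or whether tumours share a mouse, so the p-values measure only the spread between these samples.

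Medians of the arrays ran from 5.72 to 5.80 (log2), and 0 pairs of arrays held identical values. The B cell receptor genes Cd79a and Cd79b reached 9.37 to 11.63 and 11.11 to 12.63, while the T cell gene Cd3d ran from 5.56 to 11.07, highest in tumours 24 and 2. RNA quality was read from control probe sets at the 3' and 5' ends of Gapdh and Actb, whose mean difference grows as RNA degrades. This 3' minus 5' difference ran from 0.26 to 0.96, highest in tumours 9 and 19. Bpifa2, a salivary gland gene, lay above a gap in 11 tumours and below it in the other 21. In bulk samples, fewer cells of a type and less RNA per cell cannot be told apart. Levels of different probe sets are not comparable, so only the spread and the differences between tumours are compared between genes.

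RefSeq promoter windows (assembly GRCm38.p6, 250 bases before to 50 after the annotated start) matched 39 of the 47 genes. They were searched on both strands for letters of sites linked to proteasome or growth genes. The ETS core CCGGAAG stood in 41.0% of the member genes (16) and in 9.93% of all 27025 genes with a window. The core of the antioxidant response element, TGACNNNGC, stood in 15.4% of member genes and 14% of all genes, CCAAT in 38.5% and 41.1%, and the E-box CACGTG, the letters that Myc binds, in 10.3% and 8.09%. The site of nuclear respiratory factor 1, a factor distinct from that of Nfe2l1, was rare and stood in 2 member genes, 5.13% against 1.07% of all genes. A match is a description of letters, and none of the first 4 motifs overlaps another in the stretches below. The stretches show the 100 bases before the start, 5′ to 3′, of genes the results return to, with the ETS core in capitals in the first 4 and the antioxidant response element core in capitals in the last 2. They lie at chr12:100110102-100110201 (plus strand), chr11:107479428-107479527 (plus), chr16:95990961-95991060 (minus), chr14:14120946-14121045 (minus), chr14:54617996-54618095 (minus) and chr5:123228090-123228189 (plus), in the order printed.
Psmc1: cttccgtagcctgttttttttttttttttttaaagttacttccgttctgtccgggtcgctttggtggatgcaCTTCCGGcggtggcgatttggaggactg
Psmd12: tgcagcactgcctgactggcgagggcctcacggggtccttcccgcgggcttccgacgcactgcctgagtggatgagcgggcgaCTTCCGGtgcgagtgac
Psmg1: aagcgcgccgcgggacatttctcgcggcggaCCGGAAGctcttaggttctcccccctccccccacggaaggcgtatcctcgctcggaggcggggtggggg
Psmd6: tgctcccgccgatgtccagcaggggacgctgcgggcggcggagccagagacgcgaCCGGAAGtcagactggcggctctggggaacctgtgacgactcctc
Psmb5: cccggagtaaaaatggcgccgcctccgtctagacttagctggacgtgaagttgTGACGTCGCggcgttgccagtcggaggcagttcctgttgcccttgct
Psmd9: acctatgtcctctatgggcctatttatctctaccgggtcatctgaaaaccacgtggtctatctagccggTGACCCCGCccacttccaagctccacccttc

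Proteasome genes varied little between tumours. The median SD of the 43 members was 0.19 on the log2 scale against 0.28 over all tested genes, and 36 members lay below the latter. All 43 members also had a mean of at least 7.67, the 75th percentile of all probe sets, which 6816 tested genes reached. Their SD was not set against genes of like signal alone. Hybridisation control probe sets, added at the same amount to every array, had SDs of up to 0.22, and poly-A controls, added to the RNA before labelling, of up to 0.37. An SD above the highest hybridisation control was found for 14 members (background 69.5% of all tested genes). An SD above the highest poly-A control was found for 1 member, Psme4 (background 32.1%). For 22 members with several probe sets, the median r between the chosen and the other probe sets was 0.49, against 0.61 for 3406 other genes with an SD no higher than the poly-A controls. That r was 0.065 for Psma1, 0.18 for Psmd7 and 0.20 for Psmd11, so their probe sets hardly moved together.

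**Figure D1:**
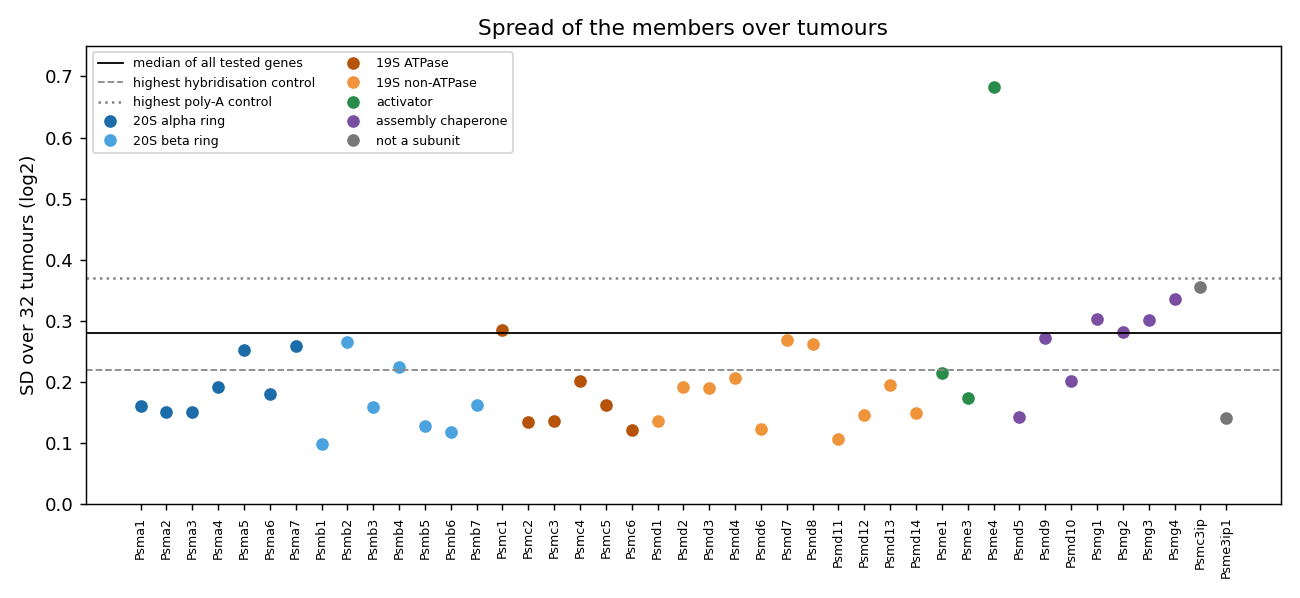
SD over 32 tumours (log2, y axis) of each of the 43 tested members (x axis), coloured by subcomplex; lines give the median of all tested genes (0.28), the highest hybridisation control (0.22) and the highest poly-A control (0.37). Psme4, at 0.68, is the only member above every line, and the Psmg chaperones lie above most core and cap subunits.

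The alpha ring, which forms the gate of the barrel, had a median SD of 0.18. Psma2 and Psma3 had the smallest SDs, both 0.15, followed by Psma1 at 0.16, Psma6 at 0.18 and Psma4 at 0.19. Psma7 (0.26) and Psma5 (0.25) had the largest. Psma7 ran from 9.94 in tumour 28 over a median of 10.90 to 11.30 in tumour 24, and its next lowest value was 10.25 in tumour 9. Tumour 28 thus stood apart, and the other probe set of Psma7 followed it with r = 0.98. Psma5 ran from 11.03 in tumour 9 over 11.55 to 12.01 in tumour 10, without such a gap.

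The beta ring holds the proteolytic sites and had a median SD of 0.16. Psmb1 had the smallest SD of all members, 0.098, with values from 11.50 over 11.71 to 11.99 in tumour 10, where the next highest value was 11.81. Among the catalytic subunits, Psmb6 (caspase-like activity) ran from 10.75 over 11.01 to 11.21, with an SD of 0.12. Psmb5, which carries the chymotrypsin-like site that proteasome inhibitor drugs bind, ran from 10.59 in tumour 30 over 11.04 to 11.17, with an SD of 0.13. Its lowest value stood apart from the next, 10.81 in tumour 21. Psmb7 (trypsin-like activity) ran from 10.44 in tumour 9 over 11.11 to 11.38, with an SD of 0.16 and a next lowest value of 10.92. Psmb3 had an SD of 0.16 and Psmb4 of 0.22. Psmb2 had the largest, 0.27, and was alone at both ends. It was 9.85 in tumour 28 (next lowest 10.41), had a median of 10.93 and reached 11.40 in tumour 21 (next highest 11.05).

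The ATPases of the cap form the motor that unfolds substrates and had a median SD of 0.15. Psmc6 (0.12) and Psmc2 (0.13) varied least, followed by Psmc3 (0.14), Psmc5 (0.16) and Psmc4 (0.20). Psmc1 varied most, with an SD of 0.28. It ran from 9.28 in tumour 24 over 10.04 to 10.67 in tumour 20, and the values of tumours 6, 16, 20 and 32 lay above all others.

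The non-ATPase subunits of the cap had a median SD of 0.19, and all 11 lay below the median SD of all genes. Psmd11, a scaffold subunit, had the smallest (0.11), followed by Psmd6 (0.12) and Psmd1 (0.14). Psmd12 and Psmd14 had SDs of 0.15. Psmd14, the deubiquitinase of the lid, ran from 11.38 in tumour 9 over 11.79 to 11.996 in tumour 14. Psmd2, Psmd3 and Psmd13 had SDs of 0.19, and the ubiquitin receptor Psmd4 had 0.21. Psmd7 (0.27), which pairs with Psmd14, and Psmd8 (0.26), a lid subunit, had the largest. Psmd8 ran from 10.68 in tumour 2 over 11.39 to 11.83 in tumour 14, and Psmd7 from 9.09 in tumour 9 over 9.67 to 10.26 in tumour 7.

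The activators spanned the widest range of SDs. Psme4, known for its role with acetylated histones and in the testis, ran from 8.99 in tumour 18 over 10.44 to 12.61 in tumour 25, with an SD of 0.68. Tumour 29 followed at 12.32, and tumour 12 was the second lowest at 9.52. The 4 other probe sets of Psme4 that passed the filter followed it with r between 0.86 and 0.99. Psme1, a subunit of the interferon-inducible activator, ran from 11.46 over 11.83 to 12.67 in tumour 24, with an SD of 0.21. The next highest value was 11.99, so tumour 24 alone made up most of its range. The same tumour had the highest T cell score of all, the second highest interferon score (2.23) and the highest mean standardised value of Psmb8, Psmb9 and Psmb10 (3.64). Its part in the result was not tested, and the interferon fit below leaves it out. Psme3, the nuclear activator, had an SD of 0.17 and ran from 8.55 in tumour 30 over 8.85 to 9.17 in tumour 10.

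The assembly chaperones had the highest median SD of the subcomplexes with more than 3 tested genes, 0.28. Psmd5 (0.14) and Psmd10 (0.20), which help to build the base of the cap, had the smallest SDs, and Psmd9, also a base chaperone, had 0.27. Of the chaperones of the barrel, Psmg2 had an SD of 0.28, Psmg1 and Psmg3 of 0.30 and Psmg4 of 0.34. Psmg1 ran from 9.39 in tumour 25 over 10.26 to 10.71 in tumour 12. Psmg2, its partner, ran from 9.77 in tumour 30 over 10.47 to 10.997 in tumour 12. Psmg3 ran from 9.33 in tumour 30 over 10.10 to 10.74 in tumour 7, where the next highest value was 10.37. Psmg4 was lowest in tumour 31 (8.49) and ran over 9.59 to 9.90 in tumour 11. Of the genes that encode no subunit, Psme3ip1 had an SD of 0.14 and Psmc3ip of 0.36. Psmc3ip ran from 6.65 in tumour 30 over 7.88 to 8.31 in tumour 2.

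Members moved together only in part. The mean r over the 903 pairs of members was 0.19 (jackknife SE over tumours 0.044), and 77.1% of the pairs were positive. It was 0.025 between members and other tested genes and 0.0087 over all pairs of tested genes. Correlations here share arrays and RNA quality and are given as a description. Within subcomplexes the mean r was 0.30 for the chaperones, 0.29 for the alpha ring, 0.24 for the non-ATPases, 0.23 for the ATPases, 0.17 for the beta ring and -0.10 for the activators. Several of the closest pairs lie in different subcomplexes, such as Psmb4 and Psmd4 (r = 0.85), Psmb6 and Psmd14 (0.80), and Psma6 and Psmc1 (0.78). Psmg1 and Psmg2, which encode the partners of 1 dimer, reached 0.80. The most negative pairs were Psmb4 with Psme4 and Psmc1 with Psme1, both at -0.48.

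By tumour, the mean standardised value of the members was highest in tumours 20 (0.52), 31 (0.50) and 16 (0.44). It was lowest in tumours 9 (-1.22), 25 (-0.92), 19 (-0.74) and 15 (-0.73). In tumour 9, 9 members had their lowest value, and in tumour 25, 2 of 43 members lay above their own median. Tumours 9 and 19 also had the largest 3' minus 5' differences, 0.96 and 0.90, and the range over all tumours starts at 0.26. Tumour 25 had a 3' minus 5' difference of 0.47, and its Psme4 was the highest of all. In tumour 30, 7 members had their lowest value, among them Psmg2, Psmg3, Psmc3ip, Psmb5 and Psme3, while Psmb6 and Psmd11 had their highest value there. Tumour 24 was mixed as well, with 4 members at their highest and 4 at their lowest value.

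**Figure D2:**
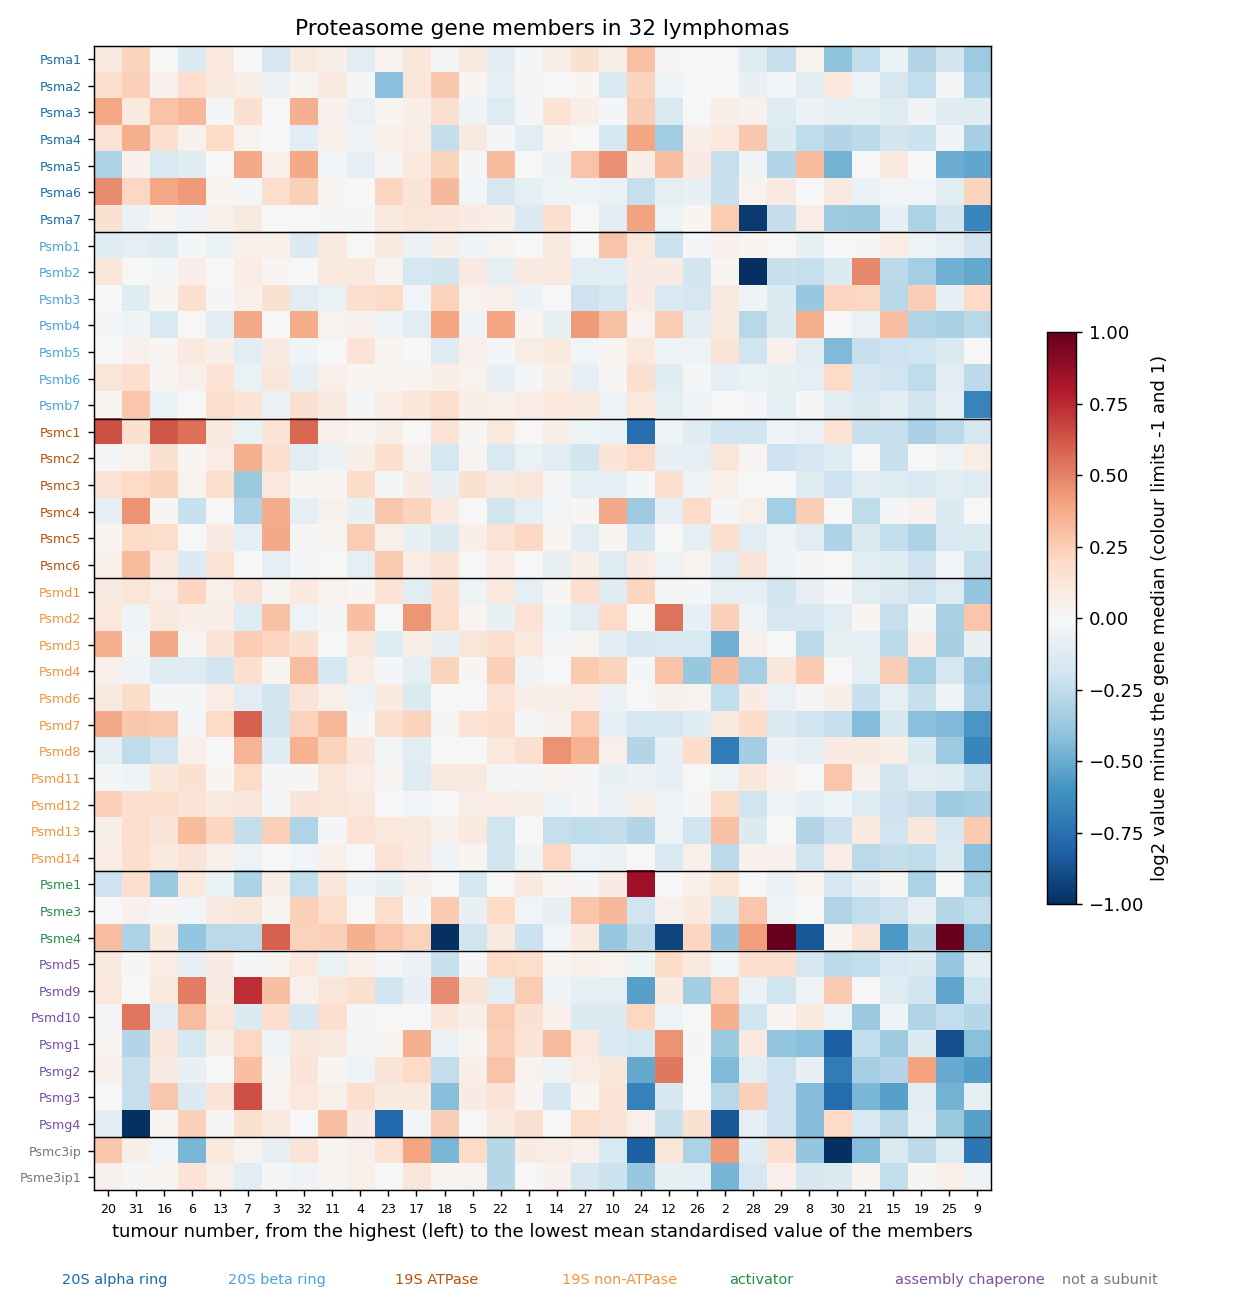
Log2 value minus the gene's median (colour, limits at -1 and 1) of the 43 tested members (rows, grouped and coloured by subcomplex) in 32 tumours (columns, from the highest to the lowest mean standardised value). Most cells are pale, Psme4 shows the strongest colours, and tumours 30, 25 and 9 show blue in most chaperones.

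For some members, the level of their own chromosome went with part of their spread. Some tumours had a shifted level of a whole chromosome, taken as the median over its tested genes that are no members, with each gene centred on its mean. Along the median of their own chromosome, 18 of 43 members rose and 0 fell (background 27.1% rising and 2.16% falling of 11183 genes, limma, adjusted p under 0.05). The share of members was 41.9%. Among genes with a mean of at least 7.67, a filter that all 43 members passed, 22 members and 3039 of 6804 genes rose. The excess of members over the background was thus smaller among genes of higher signal. Slopes are log2 changes per 1 SD of an axis over tumours. The largest belonged to Psmc1 on chromosome 12 (0.25 ± 0.027 SE, adjusted p = 7.53e-08), Psmb2 on chromosome 4 (0.22 ± 0.028, 1.15e-06), Psmg3 on chromosome 5 (0.22 ± 0.038, 5.67e-05) and Psmb4 on chromosome 3 (0.20 ± 0.022, 1.37e-07). These 4 stayed called in each of the 32 fits without 1 tumour. The other called members were Psma3, Psma5, Psma6, Psmb1, Psmc3ip, Psmc5, Psmd2, Psmd3, Psmd4, Psmd8, Psmd9, Psmg1, Psmg2 and Psmg4, with slopes from 0.049 for Psmb1 to 0.19 for Psmc3ip. Leaving out 1 tumour ended some of these calls. The adjusted p was 0.82 for Psmb1 without tumour 10, 0.47 for Psmd9 without tumour 7, 0.12 for Psmg4 without tumour 23, 0.12 for Psmg2 without tumour 12, 0.0619 for Psmc3ip without tumour 24 and 0.0501 for Psmd2 without tumour 12. Psmd3 and Psmd8 kept their call in 16 and 22 of the 32 fits, and Psmb1 in 18. With arrays shifted by the mean of 7 reference genes, 14 members and 2454 of 11183 genes rose. Psmc3ip, Psmc5, Psmd3, Psmd8, Psmd9, Psmg1 and Psmg2 then lost their call, while Psma2, Psmc2 and Psme1 gained a call.

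Much of this rested on the tumours with a clear shift, here a chromosome median at least 0.2 from its median over tumours, a limit chosen after seeing the data. It was met by 22 pairs of a chromosome and a tumour that concerned 16 members, and in 52 of the 53 resulting pairs of member and tumour the member lay on the side of its chromosome. In 14 of the 53 the member had its most extreme value of all 32 tumours. The tumours were chosen by the level of the same chromosomes, so much of this agreement was set by the choice. The share over all genes of these chromosomes was not counted, so these counts describe the tumours and are no trait of the members. Fitted for each chromosome without its shifted tumours, 6 of 43 members rose and 0 fell. The share of rising members was then near the background (13.9% rising and 2.82% falling of all genes). The 6 were Psmb2, Psmc1, Psmc5, Psmc3ip, Psmg1 and Psmg3. The 3 members on chromosome 3 were not among them.

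Chromosome 3 was higher in tumours 7, 8, 10, 12, 15, 18, 22, 27 and 32. Psmb4, a beta subunit, lay between 12.18 and 12.36 in these 9 tumours and between 11.60 and 12.02 in the other 23. Psma5 lay between 11.65 and 12.01 in the same 9 and between 11.03 and 11.65 in the other 23, and these ranges met without overlap before rounding. Psmd4 lay between 11.03 and 11.18 in the 9, and its highest value elsewhere was 11.19 in tumour 2. The mean r among these 3 genes was 0.70.

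Chromosome 12 was higher in tumours 6, 16, 20 and 32. Psmc1 lay between 10.59 and 10.67 in these 4 tumours and reached at most 10.20 in the others. Psma3 lay between 12.54 and 12.64, with at most 12.50 elsewhere. Psma6 lay between 12.57 and 12.81, and 1 other tumour reached 12.65. The mean r among these 3 genes was 0.63.

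Single tumours stood out for other chromosomes. Chromosome 16 was higher in tumours 12 and 17, which held the 2 highest values of Psmd2 (11.59 and 11.49) and of Psmg1 (10.71 and 10.62). Chromosome 5 was higher in tumour 7, which held the highest Psmc2 (11.67), Psmd9 (9.14) and Psmg3 (10.74). Chromosome 17 was higher in tumour 10, the highest of Psmb1. Chromosome 18 was higher in tumours 12 and 19, which held the 2 highest values of Psmg2 (10.997 and 10.87), and in tumour 6, where Psmg2 was 10.39, below its median of 10.47.

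Lower chromosomes were rarer. Chromosome 4 was lower in tumour 28, where Psmb2 was lowest by 0.57 to the next. Chromosome 13 was lower in tumour 23, where Psma2 was lowest (11.64) and Psmg4, at 8.82, was the third lowest. No tumour met the limit on chromosome 11, which carries 9 members, of which Psmc3ip, Psmc5 and Psmd3 rose with its median. None met it on chromosomes 2 and 14 either, whose 5 and 4 members had no call. The 3 calls on chromosome 11 were lost with arrays shifted by the reference genes. Tumour 24 had the lowest median of chromosomes 3, 5, 8, 9, 11, 12, 14, 16, 17 and 18 alike. Psmc1, on chromosome 12, was also lowest in that tumour (9.28). How far members followed their own chromosome rather than a level shared by many chromosomes was not tested. Pairs of members on the same chromosome had a mean r of 0.25 (70 pairs) and pairs on different chromosomes 0.19 (833 pairs).

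**Figure D3:**
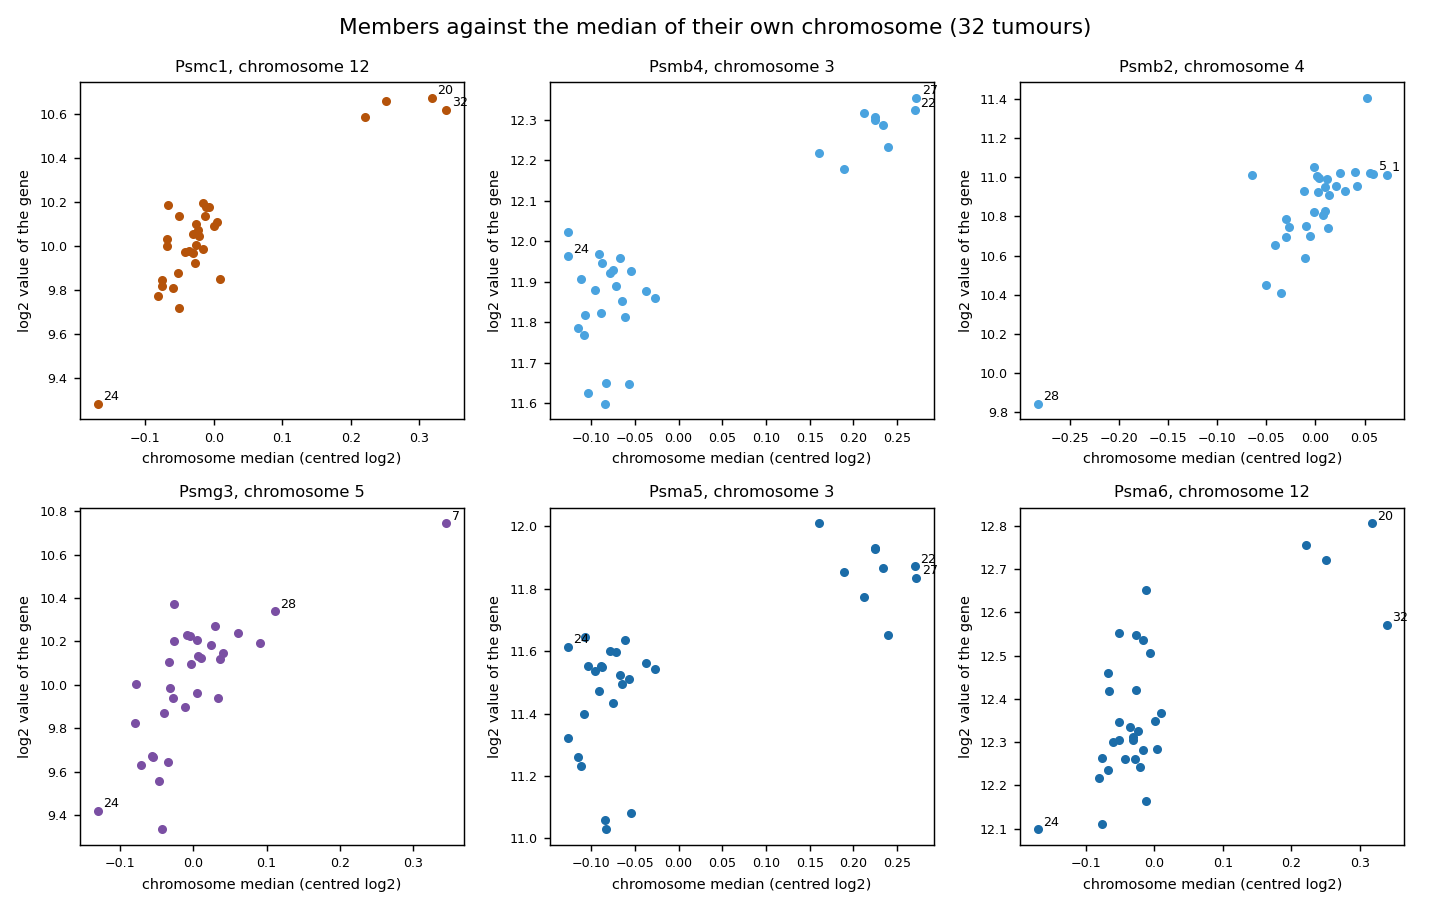
Log2 value of 6 members (y axes) against the centred log2 median of the other genes of their chromosome (x axes), 1 point for each of 32 tumours, with the 2 highest and the lowest tumour on the x axis numbered. Psmb4 and Psma5 split into 9 high tumours and the rest, Psmc1 and Psma6 into 4 and the rest, Psmb2 is lowest in tumour 28, and Psmg3 is highest in tumour 7.

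Myc is the driver of these tumours, and its level ran from 9.81 in tumour 2 over 11.34 to 12.30 in tumour 7. Along the Myc level, 8 members rose and 1 fell (background 10.4% rising and 9.67% falling, limma). At an unadjusted p under 0.05 there were 14 rising and 1 falling. The rising members with the largest t were Psmd8 (0.20 ± 0.031, adjusted p = 8.9e-05), Psme3 (0.095 ± 0.028, 0.0166), Psmd3 (0.096 ± 0.031, 0.0271) and Psmg2 (0.14 ± 0.045, 0.0312). The others were Psmg4, Psmd6, Psma5 and Psmd7. Psmd13, a lid subunit, fell (-0.093 ± 0.032, adjusted p = 0.0391). This call was lost in 8 of the 32 fits without 1 tumour, those without tumour 2, 6, 7, 9, 22, 26, 27 or 32 (adjusted p up to 0.14), and under 6 of 9 alternatives (up to 0.39), the mean of its probe sets among them. Of its 2 other probe sets that passed the filter, 1 had an r of -0.10 to the chosen one and 1 an r of 0.95. No ATPase and no beta subunit was called. Psmd8 stayed called under each of 9 alternatives and without any 1 tumour. Psmd3 lost its call without tumour 2 or 7 (adjusted p up to 0.23) and Psmg2 without tumour 2, 7, 9 or 24 (up to 0.0918). The count was less firm: it was 3 without tumour 2 or tumour 7, 4 without tumour 9, 22 or 27, and 5 without tumour 26 or 32. With arrays shifted by the mean of the reference genes, 1 member rose and 2 fell (536 and 1173 of all 11227 tested genes). The 3 tumours lowest in Myc, tumours 2, 9 and 24 (9.81, 10.39 and 10.55), had the 3 highest T cell scores (2.64, 1.45 and 3.17, the mean standardised value of 5 T cell genes). With a covariate for T cell, myeloid and stroma genes, 2 members rose and 0 fell along the Myc level, Psmd8 and Psmg4. Of all tested genes, 254 rose and 234 fell in that fit.

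The Myc target score, the mean standardised value of 18 genes known as Myc targets, called members of the chaperones, the non-ATPases, the ATPases and the activators. Tumours 24, 25 and 30 stood apart at its low end and were left out, which left 29 tumours. Of 43 members, 11 rose and 0 fell (background 9.01% and 5.09%), and 20 rose at an unadjusted p under 0.05 with 0 falling. Of the 7 tested assembly chaperones 4 rose, all of the barrel: Psmg3 (0.20 ± 0.031, adjusted p = 0.000126), Psmg1 (0.17 ± 0.032, 0.000578), Psmg2 (0.14 ± 0.037, 0.0108) and Psmg4 (0.20 ± 0.053, 0.0109). The 3 chaperones of the cap did not pass, with slopes of 0.059 ± 0.023 for Psmd5 (adjusted p = 0.0779), 0.046 ± 0.044 for Psmd9 (0.525) and -0.015 ± 0.039 for Psmd10 (0.836). Of the 11 non-ATPases 5 rose, Psmd3, Psmd7, Psmd8, Psmd12 and Psmd14, led by Psmd3 (0.14 ± 0.025, 0.000466) and Psmd7 (0.18 ± 0.038, 0.00248). Psmc1 and Psme3 rose as well. None of the 7 alpha and 7 beta subunits passed, although the slopes of all 14 were positive. The nearest was Psmb7 (0.078 ± 0.030, adjusted p = 0.0722). Psmd3, Psmg1 and Psmg3 stayed called under each of 9 alternatives and in each of the 29 fits without 1 tumour. Psmd8 and Psme3 kept it in 25, Psmc1 in 20, Psmd12 in 18 and Psmd14 in 16 of these fits. The count was 6 without tumour 9, 7 without tumour 15 or 32, and 18 without tumour 31. Whether the slopes of chaperones and core subunits differ was not tested.

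**Figure D4:**
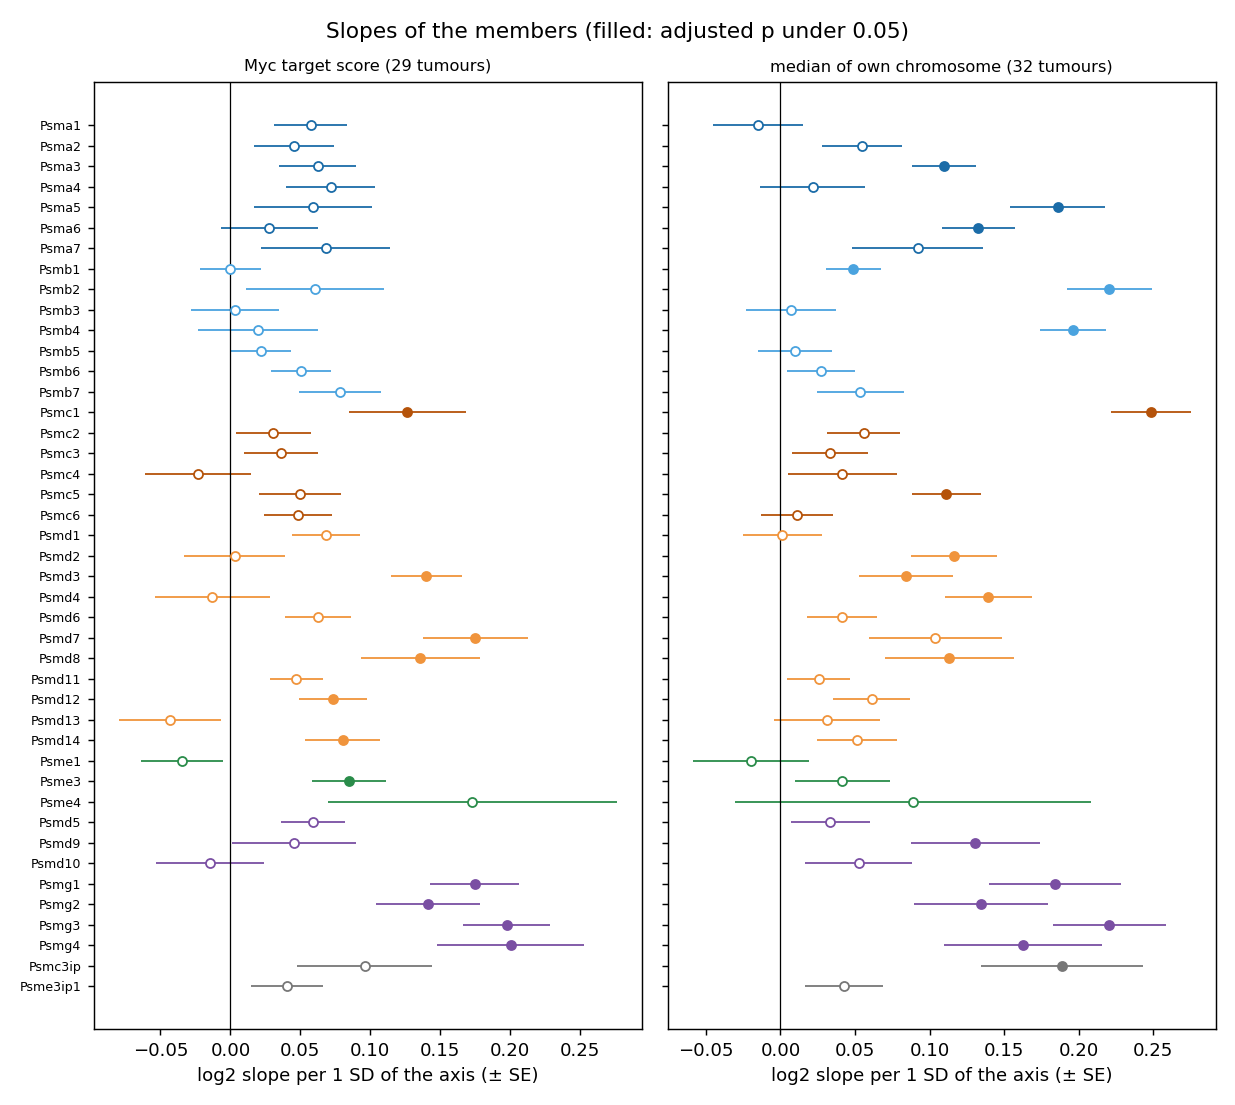
Slope of each tested member (rows, coloured by subcomplex) in log2 per 1 SD of the axis with its SE, on the Myc target score in 29 tumours (left) and on the median of the member's own chromosome in 32 tumours (right); filled points passed an adjusted p under 0.05. On the left, the 4 Psmg chaperones and Psmd3, Psmd7 and Psmd8 lie farthest to the right among the filled points, and no core subunit is filled; on the right, 18 points are filled, all above 0.

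The proliferation score, from 20 cell cycle genes, gave 7 rising and 0 falling members (background 18.7% and 11%). They were Psmc3ip (0.23 ± 0.049, adjusted p = 0.000677), Psmg2 (0.18 ± 0.040, 0.00152), Psmg3 (0.16 ± 0.046, 0.00743), Psmg1 (0.16 ± 0.047, 0.00991), Psmd5, Psmc3 and Psmc5. The share of members, 16.3%, was near the background. The score was lowest in tumours 30 (-1.79) and 24 (-1.23). Without both, 0 members were called, and without tumour 30 alone 2 were, Psmc3ip and Psmg2. Without the tumours with high Bpifa2, 0 members were called too. Of all tested genes, 879 rose and 393 fell without tumours 30 and 24, and 859 and 832 without the tumours with high Bpifa2. With arrays shifted by the reference genes, 2 rose and 1 fell.

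Nfe2l1 itself, the regulator of proteasome genes, ran from 8.39 in tumour 31 over 8.65 to 9.16 in tumour 24. Members did not rise with its transcript: 0 rose and 4 fell (background 10% each way, limma), and at an unadjusted p under 0.05 there were 2 rising and 10 falling. The 4 were Psmc1 (-0.15 ± 0.043, adjusted p = 0.0121), Psmg2 (-0.15 ± 0.043, 0.0133), Psmc3ip (-0.17 ± 0.056, 0.0295) and Psmd6 (-0.061 ± 0.022, 0.0438). Without tumour 24, 2 members were called, and without tumours 9 and 24 there were 0 (344 rising and 206 falling of all 11227 tested genes). With arrays shifted by the reference genes, 4 rose and 3 fell, so no direction of the whole set is settled. The protein is controlled after translation, which these arrays do not measure. Psmb5 and Psmd9, whose stretches above hold the antioxidant response element core, had no call on this axis.

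Markers of T cells, of the interferon response and of B cell stage called few members. Along the score of 5 T cell genes, 0 members rose and 3 fell (background 10.5% and 12.5%). Psmd8 fell by 0.16 ± 0.037 per SD (slope -0.16, adjusted p = 0.00171), and Psmg2 (-0.13 ± 0.045, 0.0373) and Psme3ip1 (-0.068 ± 0.024, 0.0406) followed. Psmd8 kept its call without any 1 tumour. Without tumour 2, 1 was called, and without tumours 2 and 24 also 1, which was Psmb7 (269 rising and 183 falling of all 11223 tested genes). With arrays shifted by the reference genes, 3 rose and 1 fell. Psme1 had a slope of 0.090 ± 0.036 with an adjusted p of 0.0676.

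Along the interferon score, fitted in 29 tumours without tumours 2, 10 and 24 at its high end, limma called 0 members (background 0.152% rising and 0% falling). At an unadjusted p under 0.05, 0 members rose and 2 fell, Psmd14 and Psmg1. Along the precursor B cell score limma called 0 members as well (background 1.52% and 0.874%), with 3 rising and 4 falling at an unadjusted p under 0.05. Psma6 came nearest, with a slope of 0.096 ± 0.029 and an adjusted p of 0.0711. Without tumour 25 or tumour 32 the count was 1.

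Along the 3' minus 5' difference, the measure of RNA quality, the share of members called was above the background. On it, 1 member rose and 4 fell, 2.33% and 9.30% of the 43 members (background 0.321% and 0.837%, limma). At an unadjusted p under 0.05, 18 members fell and 2 rose, while 1451 of all 11228 genes passed in either direction. Psmb7 fell most clearly (-0.12 ± 0.023, adjusted p = 0.00956), followed by Psma1 (-0.10 ± 0.024, 0.0291), Psmd6 (-0.081 ± 0.020, 0.0323) and Psmd7 (-0.16 ± 0.040, 0.0409). Psmb3 rose (0.10 ± 0.024, 0.0329). These calls rested on the ends of the axis: the count was 0 without tumour 9, 1 without tumour 19 or 21, 3 without tumour 31, and 0 without tumours 9 and 19. It was also 0 with ranks of the axis and without the tumours with high Bpifa2. Calls over all 11228 genes, 36 rising and 94 falling in the main fit, were lost as well. They were 1 rising and 2 falling with ranks, 1 and 0 without the tumours with high Bpifa2, and 0 and 0 without tumours 9 and 19. Whether RNA quality or another feature of tumour 9 goes with these slopes was not tested. With the difference as a covariate, the Myc target score had 6 rising members, and the own chromosomes had 17.

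The catalytic subunits were set against the immunoproteasome subunits that replace them. Psmb8, Psmb9 and Psmb10 were highest in tumour 24, at 12.53, 12.29 and 11.50 against medians of 11.26, 10.21 and 10.25. Psmb5 and its replacement Psmb8 rose together over the 32 tumours (r = 0.46, permutation p = 0.0118, adjusted over 3 relations 0.0355; rho = 0.42, permutation p = 0.0156). Without tumours 21 and 30, the farthest from the median of Psmb5, r was 0.39. It lay between 0.41 and 0.50 without any 1 tumour, and 5 of those 32 values missed the threshold, those without tumour 2, 19, 21, 28 or 30 (adjusted p from 0.0512 to 0.0826). Psmb6 and Psmb9 had an r of 0.15 (rho = 0.016, permutation p of r = 0.401, adjusted 0.401), and Psmb7 and Psmb10 an r of 0.23 (rho = 0.24, permutation p = 0.18, adjusted 0.269). Without tumours 9 and 19 the former was 0.14, and without tumours 9 and 31 the latter was 0.16. Without tumour 24, the r of Psmb6 and Psmb9 was -0.036. Over all 32 tumours, only the relation of Psmb5 and Psmb8 among these 3 passed the threshold. In the 21 tumours without high Bpifa2, Psmb6 and Psmb9 passed it too (r = 0.49, permutation p adjusted over 3 relations 0.0385), and Psmb5 and Psmb8 had an r of 0.59 (0.0145).

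The immunoproteasome subunits were also fitted along the Myc level and the T cell score. Psmb8, Psmb9 and Psmb10 fell along the Myc level, with slopes of -0.20 ± 0.053, -0.36 ± 0.077 and -0.19 ± 0.048 (limma, adjusted p = 0.00991, 0.00173 and 0.00722). Psmb5 (-0.044 ± 0.024, adjusted p = 0.196), Psmb6 (0.016 ± 0.023, 0.677) and Psmb7 (0.062 ± 0.029, 0.12) were not called on that axis. Along the T cell score the inducible subunits rose, by 0.21 ± 0.052, 0.35 ± 0.078 and 0.18 ± 0.049 (adjusted p = 0.00397, 0.00138 and 0.00867). Psmb5, Psmb6 and Psmb7 were not called, with slopes of 0.031 ± 0.024, 0.0012 ± 0.023 and -0.045 ± 0.030 (adjusted p = 0.381, 0.979 and 0.283). The difference between the subunits of a pair was not tested. Tumours 24 and 2 had the highest and second highest Psmb8, Psmb9 and T cell score (3.17 and 2.64). They were among the lowest in Myc (10.55 and 9.81). How far the slopes of the inducible subunits rest on these tumours was not tested.

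Other genes of the ubiquitin and proteasome pathway were followed through a list of 36 names, 23 of them tested. Along the Myc level 3 of the 23 rose and 4 fell (background 10.4% and 9.67%). Uchl5, a deubiquitinase of the cap (0.17 ± 0.037, adjusted p = 0.00164), Ubqln4, a shuttle factor (0.18 ± 0.049, 0.00866), and Usp14, another deubiquitinase of the cap (0.15 ± 0.048, 0.0243), rose. Zfand5, which activates the proteasome (-0.24 ± 0.056, 0.00351), Nfe2l1 (-0.10 ± 0.026, 0.00742), Vcp, the segregase that extracts ubiquitinated proteins (-0.085 ± 0.025, 0.0151), and Ubqln2 (-0.23 ± 0.075, 0.0282) fell. Along the Myc target score 2 rose and 0 fell (background 9.01% and 5.09%), Uchl5 (0.14 ± 0.039, 0.0135) and the shuttle factor Rad23b (0.11 ± 0.031, 0.0193).

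On the proliferation score (background 18.7% rising and 11% falling) 2 of the 23 rose, Uba6 and Nfe2l2, and 2 fell, Nfe2l1 (-0.11 ± 0.025, adjusted p = 0.00137) and Zfand2a. Along the T cell score (background 10.5% and 12.5%) 3 rose, Nfe2l1 (0.12 ± 0.023, 0.000247), Pomp, the maturation factor of the barrel (0.072 ± 0.025, 0.0345), and Vcp, while 3 fell, Uchl5 (-0.16 ± 0.039, 0.00285), Usp14 (-0.16 ± 0.048, 0.0161) and Ecpas. On the Nfe2l1 level, tested for 22 (background 10% each way), Pomp rose (0.074 ± 0.025, 0.0345) and Usp14 fell (-0.14 ± 0.050, 0.0416). Limma called 0 of the 23 on the interferon score, the precursor B cell score and the 3' minus 5' difference. Along their own chromosome 8 of the 23 rose (background 27.1%), led by Ube3c (0.16 ± 0.023, 5.96e-06), Ubqln4 (0.25 ± 0.037, 7.21e-06) and the proteasome inhibitor Psmf1 (0.26 ± 0.051, 0.000346).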

How the data were processed

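Total RNA of 32 lymphomas was labelled with biotin by in vitro transcription and hybridised to Mouse430_2 arrays, per the labels' protocols. The authors deposited log2 values for each probe set, computed by RMA with affy per the submitters' processing notes, whose version is not given in the sources used here. Since RMA equalises the distributions of the arrays, a shift common to most genes would not show. All samples belong to 1 group, no sample was left out, 0 columns lacked a sample, and no batch is named in the sources used here. Precision is limited by how many arrays there are.

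Of 45101 probe sets, 34958 carried 1 symbol in the platform annotation, 932 several and 9211 none, and only the first were used. Of 18194 symbols, 18033 were found in the RefSeq table (GRCm38.p6), which gave chromosomes and changed 0 symbols. Slopes were fitted by lmFit and eBayes of limma (3.58.1, under R 4.3.3), with Benjamini-Hochberg adjustment over all tested genes and a threshold of 0.05, leaving out the genes of an axis. Scores are means of standardised values over the tested genes of a list. Where a gap took up 25% or more of an axis and left 3 or more tumours on both sides, the fit used the larger cluster. A chromosome axis leaves out the members, while each other gene contributes to its own axis. Pair relations used two-sided permutation tests of 100000 resamples. The planned relation of Psme1 and Psme2 was not run, since Psme2 has no probe set of its own. Other steps used Python 3.11.15, numpy 2.4.6, pandas 2.3.3 and matplotlib 3.10.9. The slope fits, also those along the own chromosome, were tested on simulated data with noise drawn independently for each gene. The other steps were not tested in this way.

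Members and lists were chosen with earlier results of these data known. Named are all members with their SD, on each axis up to 4 called members in each direction with the largest t, members called on their chromosome, Psmb5, Psmb6, Psmb7, Psmd14, Psmc3ip and the Psme genes in all cases, called pathway genes (up to 3 in each direction), and the 10 other genes with the highest and the 10 with the lowest r to the members. Ubqln2, Nfe2l2, Psma6 and further called members were named beyond this rule after their values were seen.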

Additional observations from a re-analysis of the deposited data

How the results depend on the processing

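The limits are the single group, 1 array per tumour, the small spread of most members and axes whose ends hold few tumours. The following counts are of called members. In brackets stand the numbers of all tested genes that rose and fell, which changed with the settings too. Without the tumours with high Bpifa2, the proliferation score called 0 (859 and 832) and the 3' minus 5' difference 0 (1 and 0). The T cell score then called 8 (1332 and 1733), the Myc target score 6 (484 and 364) and the own chromosome 11 (2327 and 199). With arrays shifted by the reference genes, the Myc level called 3 (536 and 1173) and the Myc target score 6 (671 and 396). The proliferation score then called 3 (1266 and 1164) and the Nfe2l1 level 7 (1843 and 611). The precursor B cell score called 1 (199 and 104) and the 3' minus 5' difference 3 (27 and 59). With ranks of the axis, the Myc level called 2 (591 and 585) and the Nfe2l1 level 1 (570 and 523). The T cell score then called 1 (483 and 423) and the 3' minus 5' difference 0 (1 and 2). Without the 2 tumours farthest on the axis, the Myc level called 2 (303 and 329) and the Myc target score 6 (513 and 249). The proliferation score then called 0 (879 and 393) and the Nfe2l1 level 0 (344 and 206). The precursor B cell score called 1 (93 and 52), the T cell score 1 (269 and 183) and the 3' minus 5' difference 0 (0 and 0). With a covariate for T cell, myeloid and stroma genes (the mean of their scores), the Myc level called 2 (254 and 234). The proliferation score then called 3 (1211 and 511), the Nfe2l1 level 1 (253 and 243) and the precursor B cell score 1 (286 and 170). With the 3' minus 5' difference as a covariate, the Myc target score called 6 (913 and 586). With the mean of all probe sets of a gene, the Nfe2l1 level called 8 (1118 and 1306). The T cell score then called 6 (1195 and 1538) and the 3' minus 5' difference 1 (26 and 79). An added setting without the tumours with a shift of the chromosome called 6 on the own chromosome (1556 and 315). The interferon score called 0 under all 9 alternatives run and without any 1 tumour. The T cell score could not be computed at the 75th percentile filter, where none of its genes passed. Why the counts changed between settings was not tested, also where a setting dropped tumours or genes.

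With 1 tumour left out in turn, the counts ran from 3 to 11 on the Myc level, 6 to 18 on the Myc target score, 2 to 8 on the proliferation score, 2 to 6 on the Nfe2l1 level, 0 to 1 on the precursor B cell score, 1 to 4 on the T cell score, 0 to 6 on the 3' minus 5' difference and 15 to 19 on the own chromosome. The r of Psmb5 and Psmb8 ran from 0.41 to 0.50, that of Psmb6 and Psmb9 from -0.036 to 0.28 and that of Psmb7 and Psmb10 from 0.18 to 0.29. Without the tumours with high Bpifa2, Psmb6 and Psmb9 had an r of 0.49 (permutation p adjusted over 3 relations 0.0385). The mean r among members was 0.15 with shifted arrays and 0.13 without the tumours with high Bpifa2, where 2 members had an SD above the poly-A controls. That number ran from 1 to 2 with 1 tumour left out, and the mean r from 0.16 to 0.21.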

Other observations

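Outside the proteasome, some genes followed the mean standardised value of the members closely over the 32 tumours. Mrpl55, a protein of the mitochondrial ribosome, had an r of 0.88, the import protein Timm50 and the respiratory chain subunit Ndufb6 of 0.82, and Mrps11 of 0.81. Dph3, Gins4, Mrpl50, Mrpl45, Nbn and Pno1 followed with 0.78 to 0.79. The lowest values belonged to Gm9222 (-0.75), Car7 (-0.74), Leng8 (-0.71), Tpt1 (-0.71), Gm3715 (-0.70), Mrvi1 (-0.67), Fam13b (-0.67), Phf1 (-0.67), Tom1l2 (-0.67) and Zfc3h1 (-0.65). The median over all 11185 other genes was 0.05. These genes were ranked by r, so the values describe these tumours and carry no test, and arrays and RNA quality are shared by all of them.

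Within the pathway list, Rad23b had an r of 0.70 to the mean of the members, Nploc4, a cofactor of Vcp, 0.59, Usp14 0.56, Psmf1 0.51 and Uchl5 0.49. Nfe2l1 had -0.36. Psmf1 was 7.01 in tumour 28, against a median of 8.58, the same tumour in which Psma7, on the same chromosome, and Psmb2 were lowest.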
